A study of Mus musculus with 8 samples.

Results

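The genes described here are 42 genes of S phase and DNA replication, chosen by name as a list of the replication machinery. Of these, 41 were measured among the 18193 genes of the array, and Chaf1a had no probe set assigned to it alone. They comprise 12 genes of origin licensing, 5 of helicase activation, 15 of DNA synthesis, 4 of nucleotide supply, 4 regulators of S phase entry and 1 histone chaperone subunit, and lie on 14 chromosomes. Their probe sets were bright, and 40 of the 41, all but that of Tyms, lay above the median level of all genes.

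RNA of mouse embryonic stem (ES) cells, self-renewing cells of the early embryo, was hybridised to 8 expression arrays. The cells were male, of strain 129S4/Svjae, and grew in ES cell medium containing the cytokine LIF. The cells carried a lentiviral short hairpin RNA against Jmjd2b (3 arrays), against Jmjd2c (2 arrays) or, as control, against GFP (3 arrays). All cells of the 3 groups had been infected, selected with puromycin and passaged 2 to 3 times before RNA was taken, and the labels name no uninfected sample and do not say how many hairpins were used per gene. Whether replicates are separate infections is not in the labels, and p-values therefore reflect only how much these arrays vary, which may be technical. The study's title names the identity of ES cells as the subject, with these histone demethylases, whose genes the array annotation calls Kdm4b and Kdm4c.

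Before S phase, the origin recognition complex, Cdc6 and Cdt1 load the MCM helicase onto origins, a step called licensing that geminin (Gmnn) restrains. Kinases then activate the helicase with Cdc45, the GINS complex and Mcm10, and primase, polymerases, the sliding clamp and its loaders copy the DNA from nucleotides made by ribonucleotide reductase and related enzymes. Many of these genes are targets of the E2F transcription factors, and mouse ES cells are known for a short first gap phase and a large share of cells in S phase.

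Each hairpin's target was lower on its own arrays. Kdm4b had intensities of 50.3, 29.3 and 17.0 in the Jmjd2b knockdown, against 421, 339 and 643 in the control (log2 change -3.34 ± 0.28, SE; limma, adjusted p = 7.60e-05), where every change is a difference of group means of log2(intensity + 16). Kdm4c had 142 and 469 in the Jmjd2c knockdown, against 1332, 1300 and 1210 in the control (-2.23 ± 0.36; limma, adjusted p = 0.0069), so that the 2 Jmjd2c knockdown arrays differed, and the value was -1.42 without the first and -3.04 without the second. The other target had lower intensities as well: Kdm4c had 752, 800 and 650 in the Jmjd2b knockdown (57.3% of the control mean; limma, adjusted p = 0.102), and Kdm4b 245 and 285 in the Jmjd2c knockdown (56.6%; limma, adjusted p = 0.178). Neither passed the test, although the arrays did not overlap with the control, and between the knockdowns Kdm4b differed (limma, adjusted p = 0.0142) and Kdm4c did not pass (limma, adjusted p = 0.114). ES cell markers were present throughout: 8 of 8 lay above the median level on every array, with a summed intensity of 50907 to 53886 in the Jmjd2b knockdown, 53336 to 54444 in the Jmjd2c knockdown and 60370 to 61524 in the control. Singly they were mixed. In the Jmjd2b knockdown Nanog (63.6% of the control mean; limma, adjusted p = 0.00595), Zfp42 (69%; limma, adjusted p = 3.76e-04), Sox2, Dppa5a and Tdgf1 fell. Sall4 rose there, and Pou5f1 and Utf1 did not pass. In the Jmjd2c knockdown Zfp42 and Tdgf1 fell and the other ES cell markers did not pass. Of 11 measured fibroblast markers, which would mark feeder cells, 2 to 4 lay above the median level, and most of their sum was Fn1, which ES cells can also express (summed intensity 3486 to 4619 in the Jmjd2b knockdown, 4654 to 5036 in the Jmjd2c knockdown and 4988 to 6519 in the control). Singly they were mixed too. In the Jmjd2b knockdown Thy1 (31.5% of the control mean), Pdgfrb (36.4%) and Fn1 (66.8%) fell. Col1a1, dim in the control (mean 12.5), rose there to 447%. In the Jmjd2c knockdown Thy1 (30.8%), Pdgfrb (52.4%) and Loxl1 (48.1%) fell. The other fibroblast markers did not pass. The 3' to 5' signal ratio of actin, which reflects RNA integrity, was 1.31 to 1.42 in the Jmjd2b knockdown, 1.43 to 1.48 in the Jmjd2c knockdown and 1.45 to 1.63 in the control. On 3 arrays (Jmjd2b knockdown array 2, control arrays 1 and 2) low values stopped at 1, and on the other 5 they did not, so comparisons were also made within these array types. Arrays also fell into sets that shared identical values: between 0.599% and 0.621% of values were identical among the Jmjd2c knockdown arrays and Jmjd2b knockdown array 3, a set without a control array. Control array 3 and Jmjd2b knockdown array 1 shared 0.459%, and the 3 arrays whose low values stopped at 1 shared 0.412% to 0.428%.

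In the Jmjd2b knockdown, 18 of the 41 genes fell and 3 rose (limma, adjusted p under 0.05 over all genes). That is 43.9% falling, where 12.9% of all genes fell, and 7.32% rising, where 11.6% of all genes rose. Among the genes above the median level, a closer match in brightness, 18.9% fell and 17.7% rose. The falls were mostly modest, with a median change over the 41 genes of -0.24 on the log2 scale against -0.03 over all genes, and values ran from -1.61 for E2f2 to 0.75 for E2f3. In all, 33 of the 41 values lay below 0, where 9785 of all 18193 genes did. The list also shifted together within the control group. On control arrays 1, 2 and 3, 32, 20 and 5 of the 41 genes lay below the control mean. The Jmjd2b knockdown arrays had 35, 34 and 29 below it and the Jmjd2c knockdown arrays 31 and 28, so a single control array reached a similar count. Of the 18 genes that fell, 13 stood at 75% of the control mean or less.

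Array by array, the median of the 41 genes stood at -0.23, -0.34 and -0.17 in the Jmjd2b knockdown, at -0.12 and -0.15 in the Jmjd2c knockdown, and at -0.06, 0.00 and 0.05 in the control, each relative to the control mean. All 5 knockdown arrays lay below all 3 control arrays. The median of all genes moved by no more than 0.03 on any array. In bulk RNA such as this, fewer cells in S phase and less RNA of these genes per cell cannot be told apart. The ES marker sum and the actin ratio given above were lower on the Jmjd2b knockdown arrays than on the control arrays, as was the median of the 41 genes, and their part in the result was not tested.

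**Figure D1:**
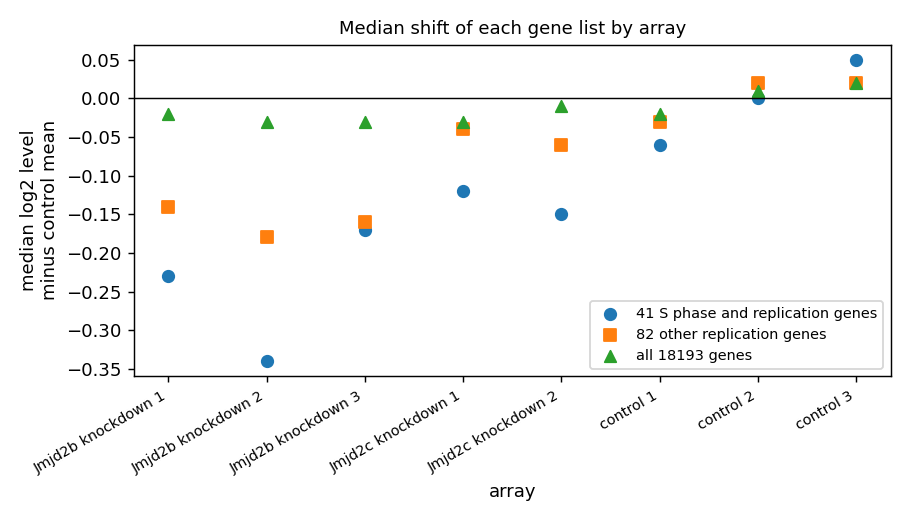
Median log2 level minus the control mean for each array (horizontal axis), for the 41 S phase and replication genes (circles), 82 other replication genes (squares) and all 18193 genes (triangles). The circles of the 3 Jmjd2b knockdown arrays lie lowest, at -0.34 to -0.17, those of the Jmjd2c knockdown at -0.15 and -0.12, and the triangles stay within 0.03 of 0.

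The promoters of the 5 called genes with the smallest p in the Jmjd2b knockdown and a sequence in the promoter table are shown so that the sequence can be read beside the values (Rrm2, E2f2, Fen1, Lig1 and Pola1; 4 fell and Fen1 rose). Each run is the 250 bases before the most upstream start listed, read 5' to 3' on the gene's strand, from RefSeq (GRCm38.p6). Capitals mark a motif match.
E2f2, chr4:136172024-136172273, plus strand: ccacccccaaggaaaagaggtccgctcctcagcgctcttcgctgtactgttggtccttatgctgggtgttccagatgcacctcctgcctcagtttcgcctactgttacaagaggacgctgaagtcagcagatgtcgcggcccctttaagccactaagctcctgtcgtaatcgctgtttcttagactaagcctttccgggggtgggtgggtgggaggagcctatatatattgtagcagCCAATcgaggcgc
Rrm2, chr12:24708004-24708253, plus strand: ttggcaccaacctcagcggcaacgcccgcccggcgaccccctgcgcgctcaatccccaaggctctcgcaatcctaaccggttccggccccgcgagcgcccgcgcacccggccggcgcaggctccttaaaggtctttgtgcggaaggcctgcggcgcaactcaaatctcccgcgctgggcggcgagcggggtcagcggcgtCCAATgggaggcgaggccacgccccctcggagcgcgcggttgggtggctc
Fen1, chr19:10204394-10204643, minus strand: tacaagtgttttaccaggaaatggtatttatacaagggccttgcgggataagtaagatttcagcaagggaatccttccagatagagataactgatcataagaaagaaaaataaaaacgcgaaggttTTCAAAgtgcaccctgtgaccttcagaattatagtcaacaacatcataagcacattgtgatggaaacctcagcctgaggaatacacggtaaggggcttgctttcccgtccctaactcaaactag
Lig1, chr7:13276925-13277174, plus strand: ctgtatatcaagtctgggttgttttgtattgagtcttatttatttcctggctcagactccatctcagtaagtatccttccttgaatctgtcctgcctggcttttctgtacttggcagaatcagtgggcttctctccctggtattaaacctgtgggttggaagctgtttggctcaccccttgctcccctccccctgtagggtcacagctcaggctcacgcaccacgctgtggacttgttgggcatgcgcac
Pola1, chrX:93632156-93632405, minus strand: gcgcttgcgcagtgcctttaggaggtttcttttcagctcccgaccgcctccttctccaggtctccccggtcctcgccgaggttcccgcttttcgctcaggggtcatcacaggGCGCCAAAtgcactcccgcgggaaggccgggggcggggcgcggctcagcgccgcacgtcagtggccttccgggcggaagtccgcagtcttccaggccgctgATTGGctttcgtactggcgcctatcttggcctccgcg
The motifs searched on both strands were E2F-type octamers (TTTCCCGC, TTTCGCGC, TTTGCCGC and TTTGGCGC), the CCAAT box (CCAAT) and the CHR-type hexamers (TTTGAA and TTTAAA). No searched motif contains another, and TTTAAA reads the same on both strands. In Pola1 the octamer begins 138 bases before the start and the CCAAT box 37 bases before it. E2f2 has its CCAAT box 13 bases and Rrm2 50 bases before the start, and Fen1 has a CHR-type hexamer at 124 bases. The Lig1 run holds no match.

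Over windows of 300 bases, which add the first 50 transcribed bases, 34 of the 41 genes had a promoter in the table and 13 of them (38.2%) held an E2F octamer, against 704 of all 27025 genes (2.6%) and 21 of 66 other replication genes (31.8%). The 13 were Cdc6, Cdt1, E2f2, E2f3, Lig1, Mcm3, Mcm5, Mcm6, Mcm7, Orc1, Pola1, Pold1 and Rfc3, with the match of E2f2 in its transcribed bases and that of Lig1 at another of its listed starts. Of the genes that fell in the Jmjd2b knockdown 7 of 15 (46.7%) held the octamer, of those that rose 2 of 3, and of those not past the test 4 of 16 (25%). A CCAAT box stood in 21 of 34 (61.8%), against 41.1% of all genes, and a CHR-type hexamer in 10 of 34 (29.4%), against 30.6%. A match is a run of letters and not a bound site, and genes with several listed starts had more sequence searched.

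Among the licensing genes, 4 of 12 fell in the Jmjd2b knockdown (Gmnn, Cdt1, Orc1 and Mcm6), 0 rose, and the median was -0.16. That is 33.3% falling, where 12.9% of all genes and 18.9% of those above the median level fell. Gmnn, the inhibitor of Cdt1, had intensities of 4188, 3743 and 3704 in the Jmjd2b knockdown, against 5023, 4962 and 5415 in the control (log2 change -0.40 ± 0.07, SE; limma, adjusted p = 0.00241). Cdt1, which brings the MCM helicase to origins, had 4677, 4327 and 5662 in the Jmjd2b knockdown, against 6162, 6740 and 6999 in the control (-0.45 ± 0.09; limma, adjusted p = 0.00729). The loader and its inhibitor were thus both lower, with no overlap between the groups. Orc1, the largest subunit of the origin recognition complex, had 591, 544 and 609 in the Jmjd2b knockdown, against 887, 835 and 899 in the control (-0.58 ± 0.13; limma, adjusted p = 0.0113). The groups did not overlap, but a second, dimmer probe set of Orc1 gave 0.02, and with the mean of all probe sets of a gene the calls of Orc1 (-0.28), Cdt1 (-0.25) and Mcm6 (-0.19; limma, adjusted p = 0.203) were lost, while Mcm4 and Mcm5 fell. For Cdt1 and Mcm6 that mean includes a probe set near the floor of the array (0.24 and -0.03). Their bright second probe sets gave -0.53 and -0.29.

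Of the 6 subunits of the MCM helicase, Mcm6 fell. Its log2 change in the Jmjd2b knockdown was -0.24 ± 0.06 (SE; limma, adjusted p = 0.0148), with 6528, 6056 and 6812 on its arrays against 7279, 7978 and 7702 in the control. The other 5 did not pass the test: Mcm4 had a value of -0.17 ± 0.07, Mcm3 -0.14 ± 0.06, Mcm7 -0.13 ± 0.06, Mcm5 -0.12 ± 0.06 and Mcm2 0.08 ± 0.09. All of these but Mcm2 were lower on every Jmjd2b knockdown array than on every control array. The gap was small in Mcm4 (4020 against 4067) and Mcm5 (6206 against 6239), and how many of all genes lay apart in this way was not counted. Orc2 and Orc6, other origin recognition subunits, had -0.16 ± 0.11 and -0.20 ± 0.08, and the loader Cdc6 had -0.06 ± 0.10, also short of the threshold.

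Of the 5 helicase activation genes, Mcm10 and Gins2 fell in the Jmjd2b knockdown, 0 rose, and all 5 values were below 0 (median -0.37). That is 40% falling, in a list of only 5, where 12.9% of all genes and 18.9% of those above the median level fell. Mcm10, which helps the activated helicase unwind DNA, had 869, 883 and 1003 in the Jmjd2b knockdown, against 1228, 1261 and 1321 in the control (-0.46 ± 0.11, SE; limma, adjusted p = 0.0101). No knockdown array reached a control array, although the mean over all probe sets of Mcm10, the others of which are dim, was -0.04. Gins2, a subunit of the GINS complex, had 1138, 945 and 1064 in the Jmjd2b knockdown, against 1579, 1290 and 1527 in the control (-0.47 ± 0.11; limma, adjusted p = 0.0113), again without overlap. Cdc45, the helicase partner of GINS, had -0.37 ± 0.13 (limma, adjusted p = 0.0573), Gins1 -0.25 ± 0.09 (limma, adjusted p = 0.0611) and the kinase Cdc7 -0.17 ± 0.13 (limma, adjusted p = 0.37). With array type as a block Cdc45 (-0.43; limma, adjusted p = 0.0477) and Gins1 (-0.30; limma, adjusted p = 0.0333) fell, as they did with arrays centred on their median or quantile normalized.

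The genes of DNA synthesis, the largest role list, held the most calls in the Jmjd2b knockdown. Of the 15 genes, 8 fell (Prim2, Lig1, Pola1, Rpa1, Rfc4, Prim1, Pold1 and Rfc1) and 2 rose (Fen1 and Rfc3). That is 53.3% falling, where 12.9% of all genes and 18.9% of those above the median level fell. The share rising was 13.3%, against 11.6% and 17.7%. Of the 4 subunits of the polymerase alpha and primase complex, which lays down primers, 3 were among those that fell. Prim2, the large primase subunit, had intensities of 856, 825 and 796 in the Jmjd2b knockdown, against 1322, 1310 and 1481 in the control (log2 change -0.72 ± 0.10, SE; limma, adjusted p = 0.00102). Pola1, the polymerase's catalytic subunit, whose promoter is printed above with both an octamer and a CCAAT box, had 1153, 1035 and 1111 in the Jmjd2b knockdown, against 1759, 1545 and 1738 in the control (-0.60 ± 0.11; limma, adjusted p = 0.00279). Neither gene's groups overlapped. Prim1, the catalytic primase subunit, fell by 0.35 ± 0.10 on the log2 scale (limma, adjusted p = 0.0241), while Pola2, the accessory subunit, had -0.01 ± 0.12 (limma, adjusted p = 0.957).

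Enzymes that finish the lagging strand went in opposite directions. Lig1, the ligase that seals Okazaki fragments, had 2595, 2251 and 2366 in the Jmjd2b knockdown, against 3122, 3273 and 3483 in the control (-0.45 ± 0.08, SE; limma, adjusted p = 0.00264). Fen1, the nuclease that trims the flap before sealing, had 2062, 2222 and 2415 in the Jmjd2b knockdown, against 1358, 1613 and 1483 in the control (0.58 ± 0.10; limma, adjusted p = 0.00189). All 3 knockdown arrays lay below every control array for Lig1 and above every control array for Fen1, whose mean was 150% of the control mean. Their printed promoter runs hold no octamer.

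The clamp loader was split as well. Rfc3 rose by 0.42 ± 0.10 (SE; limma, adjusted p = 0.0144), with 1097, 1086 and 957 in the Jmjd2b knockdown against 726, 804 and 803 in the control. Rfc4 fell by 0.42 ± 0.11 (limma, adjusted p = 0.0163) and Rfc1, the large subunit, by 0.33 ± 0.11 (limma, adjusted p = 0.0473, 0.0604 with the replicate number as a block and 0.0812 with the mean of all probe sets), while Rfc5 had 0.02 ± 0.07. Pcna, the sliding clamp they load, had 8626, 8380 and 9417 in the Jmjd2b knockdown, against 8424, 8916 and 8984 in the control, a difference of 0.00 ± 0.06 with overlapping groups. Pold1, the catalytic subunit of polymerase delta, fell by 0.50 ± 0.14 (limma, adjusted p = 0.0289), and Pole, that of polymerase epsilon, had -0.10 ± 0.13 (limma, adjusted p = 0.637). Of the single-strand binding proteins, Rpa1 fell by 0.27 ± 0.07 (limma, adjusted p = 0.0155) and Rpa2 had -0.04 ± 0.08.

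Of the 4 genes of nucleotide supply, 1 fell in the Jmjd2b knockdown (25%, against 12.9% of all genes and 18.9% of those above the median level). Rrm2, the subunit of ribonucleotide reductase that cycles with S phase, had 5424, 5162 and 5558 in the Jmjd2b knockdown, against 7468, 7324 and 7407 in the control (-0.46 ± 0.05, SE; limma, adjusted p = 2.85e-04). Its arrays agreed closely within each group, and the knockdown mean was 72.7% of the control mean. Rrm1, the other subunit, had -0.12 ± 0.07 (limma, adjusted p = 0.273), and thymidylate synthase Tyms, whose probe set was dim, had 0.32 ± 0.17 (limma, adjusted p = 0.219). The thymidine kinase Tk1 had -0.41 ± 0.14 (limma, adjusted p = 0.0545), and fell with the replicate number as a block (limma, adjusted p = 0.0402) and with the mean of all probe sets in the fit.

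The 3 largest changes of the list in the Jmjd2b knockdown were those of E2F genes. E2f2, an activating E2F factor, had intensities of 84.0, 61.3 and 71.5 in the Jmjd2b knockdown, against 257, 231 and 268 in the control (-1.61 ± 0.16, SE; limma, adjusted p = 1.73e-04), so that its knockdown mean was 28.7% of the control mean. A second, dimmer probe set of E2f2, below the median level of all genes, gave a smaller change of -0.85. E2f1, a related activator, had 217, 174 and 257 in the Jmjd2b knockdown, against 379, 359 and 457 in the control (-0.85 ± 0.17; limma, adjusted p = 0.00564), or 54.2% of the control mean. Both genes were lower on every knockdown array. E2f3, the remaining activator, went the other way, with 854, 1043 and 897 in the Jmjd2b knockdown, against 493, 628 and 519 in the control (0.75 ± 0.22; limma, adjusted p = 0.0316). Cyclin E2 (Ccne2), which drives entry into S phase, had 486, 576 and 314 in the Jmjd2b knockdown, against 334, 330 and 260 in the control. Its groups overlapped and the difference of 0.52 ± 0.28 did not pass (limma, adjusted p = 0.222).

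Chaf1b, a subunit of the chromatin assembly factor that places histones behind the fork, fell in the Jmjd2b knockdown. It had 627, 584 and 602 in the Jmjd2b knockdown, against 883, 882 and 1052 in the control (-0.62 ± 0.13, SE; limma, adjusted p = 0.00635). The groups lay well apart, although the mean with a second probe set near the floor of the array was -0.20 and did not pass.

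**Figure D2:**
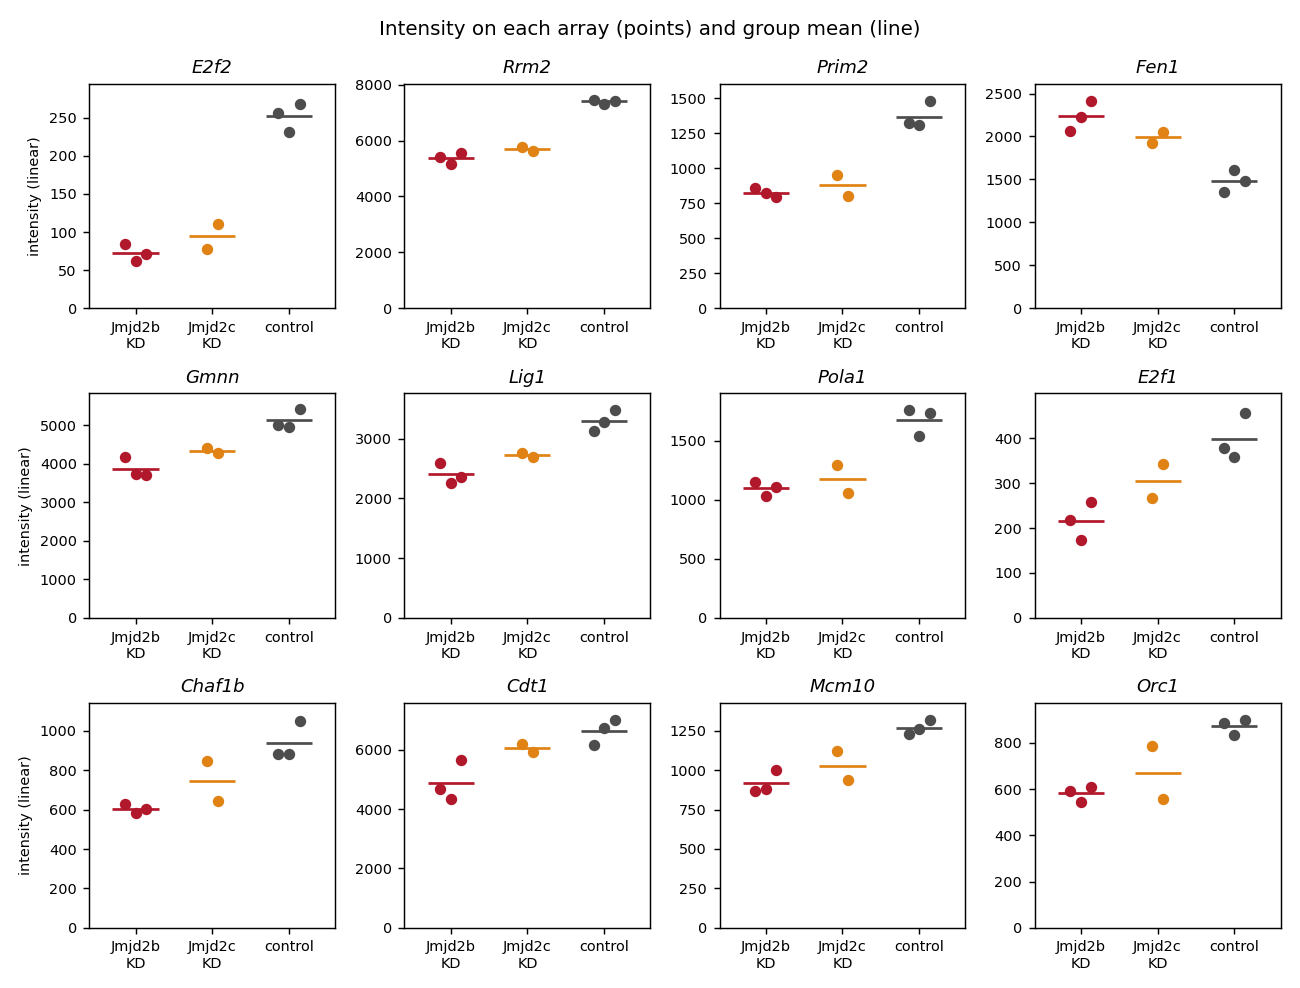
Linear intensity on each array (points) with the group mean (line) for the 12 genes with the smallest p in the Jmjd2b knockdown; columns within each panel are the Jmjd2b knockdown, the Jmjd2c knockdown and the control. Fen1 alone among them is higher in the knockdowns. In all 12 panels the 3 Jmjd2b knockdown points lie apart from the 3 control points, which choosing genes by this p favours.

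How many genes were called depended on single arrays. Without control array 3, 9 genes fell, and the calls of Orc1, Mcm6, Mcm10, Gins2, Rfc1, Rfc4, Pold1, Prim1, Rpa1 and E2f3 were lost (limma, adjusted p 0.055 to 0.153; values -0.55 to -0.24, and 0.72 for E2f3). Without Jmjd2b knockdown array 2, 10 fell and 1 rose, and the calls of Orc1, Mcm6, Gins2, Rfc1, Rfc3, Rfc4, Pold1, Prim1, Rpa1 and E2f3 were lost (limma, adjusted p 0.0502 to 0.178; values -0.53 to -0.20, 0.39 for Rfc3 and 0.67 for E2f3). Without Jmjd2b knockdown array 1, 14 fell and 1 rose, and those of Rfc1, Rfc3, Rfc4, Pold1, Prim1 and E2f3 were lost (adjusted p 0.0572 to 0.116; values -0.54 to -0.33, 0.39 for Rfc3 and 0.81 for E2f3). Without control array 2 the losses were those of Mcm6, Rfc1, Rfc4, Pold1 and Rpa1 (0.0512 to 0.146; -0.53 to -0.21). Of the 3 rising genes 1 was left without control array 1: the calls lost there were those of Rfc3, Pold1 and E2f3 (0.0513 to 0.104; 0.37, -0.54 and 0.68), and without Jmjd2b knockdown array 3 that of E2f3 was lost (0.068; 0.78). Gmnn, Pola1, Prim2, Fen1, Lig1, Rrm2, E2f1 and E2f2 kept their calls in all 19 alternatives that used both array types.

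Within the array types the sizes were similar and the tests had few arrays. Where low values stopped at 1 (1 knockdown array and 2 control arrays) the median of the 41 genes was -0.33, and where they did not (2 knockdown arrays and 1 control array) it was -0.24. All 21 called genes had the same sign in both types, which was likely in advance because they were called on these same arrays. The second type mixes arrays from both of the other sets with identical values, and only Jmjd2b knockdown array 1 shares a set with its control array. In these types E2f2 had -1.75 and -1.60, Rrm2 -0.52 and -0.43, Prim2 -0.66 and -0.83, and Fen1 0.58 and 0.58. In each type 1 of the groups compared had a lone array, whose spread was taken from the other groups. Calls within a type are therefore not read.

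In the Jmjd2c knockdown, 5 of the 41 genes fell (E2f2, Rrm2, Prim2, Pola1 and Gins2) and 1 rose (Fen1). These are 12.2% and 2.44%, where 5.28% of all genes fell and 4.31% rose, or 8.2% and 7.06% of the genes above the median level. The median over the 41 genes was -0.14, against -0.02 over all genes, with values from -1.30 to 0.77. The 6 genes were also called in the Jmjd2b knockdown with the same sign, but the knockdowns were compared with the same 3 control arrays, so these calls are not independent. No control array shared a set of identical values with a Jmjd2c knockdown array, so set and group cannot be told apart from these arrays alone. Jmjd2b knockdown arrays lie in every set, but a fit with the set as a block was not run.

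E2f2 had intensities of 77.3 and 111 in the Jmjd2c knockdown, against 257, 231 and 268 in the control (log2 change -1.30 ± 0.18, SE; limma, adjusted p = 0.0044), or 37.3% of the control mean. Its second, dimmer probe set gave -0.70. Rrm2 had 5774 and 5639 in the Jmjd2c knockdown, against 7468, 7324 and 7407 in the control (-0.37 ± 0.06; limma, adjusted p = 0.00578). Each knockdown array lay below each control array in both genes. For Prim2 the values were 955 and 802 in the Jmjd2c knockdown, against 1322, 1310 and 1481 in the control (-0.64 ± 0.12; limma, adjusted p = 0.0107), and for Pola1 1298 and 1061 against 1759, 1545 and 1738 (-0.51 ± 0.12; limma, adjusted p = 0.0264). Gins2 had 1052 and 1032 in the Jmjd2c knockdown, against 1579, 1290 and 1527 in the control (-0.48 ± 0.12; limma, adjusted p = 0.0385, and 0.0516 with the replicate number as a block). The primase, polymerase and GINS subunits were thus lower on both arrays. Fen1 had 1922 and 2058 in the Jmjd2c knockdown, above the 1358, 1613 and 1483 of the control (0.42 ± 0.11; limma, adjusted p = 0.0357; 134% of the control mean).

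None of the 12 licensing genes passed in the Jmjd2c knockdown (0 rose, 0 fell, median -0.12), where 4.31% of all genes rose and 5.28% fell. Among the 12 were Gmnn at -0.24 ± 0.08 (limma, adjusted p = 0.0817), Orc1 at -0.39 ± 0.15 and Cdt1 at -0.13 ± 0.11. The 5 helicase activation genes had a median of -0.30, with Cdc45 at -0.44 ± 0.14 (limma, adjusted p = 0.0819). Lig1 had -0.27 ± 0.09 (limma, adjusted p = 0.0848) and Pold1, with 1198 and 1436 in the Jmjd2c knockdown against 1230, 1251 and 1429 in the control, 0.01 ± 0.16. Among the regulators, E2f1 had 267 and 343 in the Jmjd2c knockdown, against 379, 359 and 457 in the control, a difference of -0.37 ± 0.19 that did not pass (limma, adjusted p = 0.274). The 2 Jmjd2c knockdown arrays disagreed on E2f3, at 630 and 1260, and on Ccne2, at 365 and 771, and neither difference (0.70 ± 0.25 and 0.77 ± 0.31) passed. Chaf1b had 845 and 646 in the Jmjd2c knockdown, against 883, 882 and 1052 in the control (-0.33 ± 0.14; limma, adjusted p = 0.187).

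**Figure D3:**
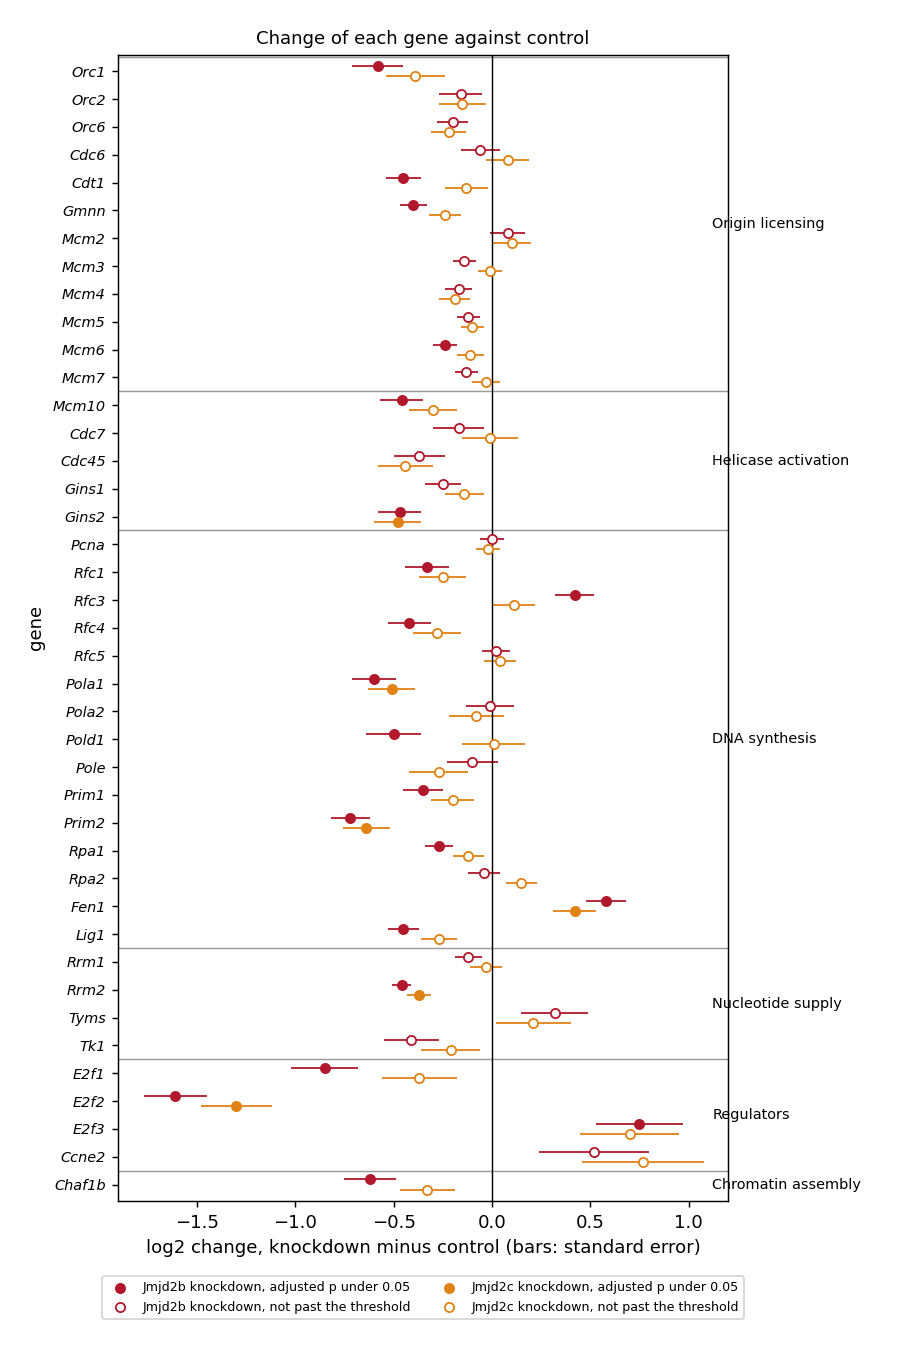
Log2 change of each of the 41 genes against the control (points, with standard errors as bars), grouped by role, in the Jmjd2b knockdown (red, upper point) and the Jmjd2c knockdown (orange, lower point). Filled points passed the adjusted threshold: 21 in the Jmjd2b knockdown and 6 in the Jmjd2c knockdown.

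These calls too rested on few arrays. E2f2 alone kept its call in all 19 alternatives that used both array types, and the median of the 41 genes was -0.22 within the arrays whose low values did not stop at 1, where 0 genes passed. With array type as a block the calls of Pola1 (-0.58; limma, adjusted p = 0.0529) and Fen1 (0.42; limma, adjusted p = 0.109) were lost, and with the mean of all probe sets those of Pola1 (-0.34; limma, adjusted p = 0.18) and Prim2 (-0.47; limma, adjusted p = 0.0503). Without control array 3, 2 genes fell and 0 rose, since the calls of Prim2, Pola1, Gins2 and Fen1 were lost (limma, adjusted p 0.0608 to 0.148; values -0.58, -0.48, -0.45 and 0.42), and without control array 1 those of Pola1, Gins2 and Fen1 (0.0809 to 0.111; -0.48, -0.42 and 0.36). Without Jmjd2c knockdown array 2 the same genes, Pola1, Gins2 and Fen1, were lost (values -0.37, -0.47 and 0.37). Leaving out either Jmjd2c knockdown array left 1 array in that group. Leaving out a Jmjd2b knockdown array changed the shared spread and lost Fen1 without array 1 or 2 (adjusted p 0.0545 and 0.0627) and Gins2 without array 1 or 3 (adjusted p 0.0584 and 0.0534).

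**Figure D4:**
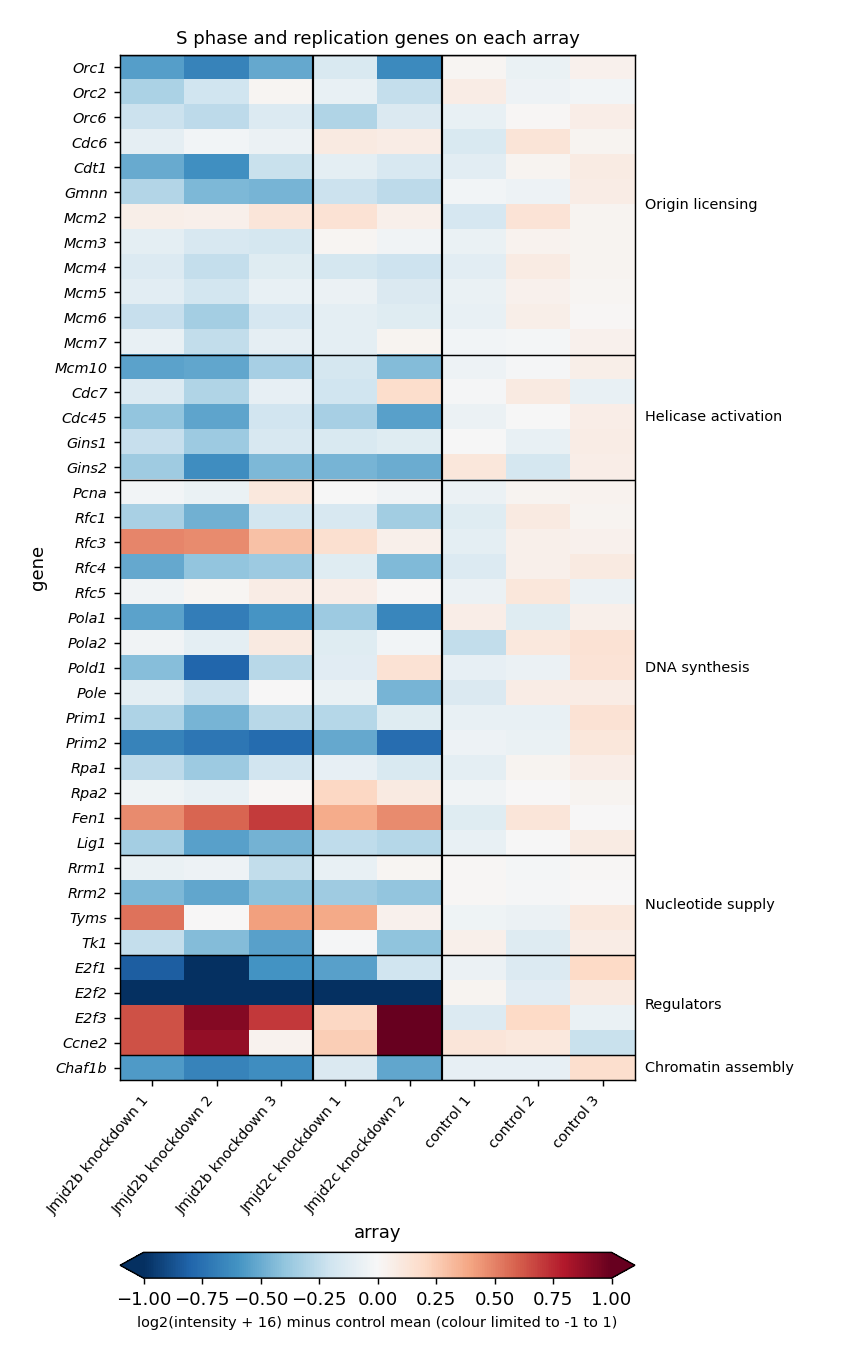
Level of each of the 41 genes (rows, grouped by role) on each of the 8 arrays (columns) as log2(intensity + 16) minus the control mean, blue for lower and red for higher, with colours limited to -1 and 1. E2f2 is dark blue on all 5 knockdown arrays, Fen1 is red on all 5, and E2f3 and Ccne2 differ between the 2 Jmjd2c knockdown arrays.

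Set directly against each other, the knockdowns did not differ past the threshold in any of the 41 genes: 0 were higher and 0 lower in the Jmjd2c knockdown than in the Jmjd2b knockdown (limma; lowest adjusted p = 0.197), where 0.203% of all genes were higher and 0.489% lower. Unadjusted, 4 of the 41 had a p under 0.05 (limma), where 2377 of all 18193 genes did, a larger share. No alternative called any of the 41. The median difference was 0.10, and 30 of the 41 values lay above 0. Over all 18193 genes the median was 0.00, and 9074 values lay below 0. Pold1 had the smallest p, with 1198 and 1436 in the Jmjd2c knockdown, against 965, 743 and 1068 in the Jmjd2b knockdown (log2 difference 0.51, 95% interval 0.16 to 0.87, not adjusted for the number of genes). Cdt1 had 6182 and 5917 in the Jmjd2c knockdown, against 4677, 4327 and 5662 in the Jmjd2b knockdown (0.32, 0.08 to 0.55), E2f1 differed by 0.47 (0.05 to 0.90) and Rfc3 by -0.31 (-0.57 to -0.06). These are the 4 genes with an unadjusted p under 0.05, a choice that favours arrays without overlap. The arrays of the knockdowns did not overlap in them, and the adjusted p lay between 0.197 and 0.326 (limma). The interval for E2f2 ran from -0.09 to 0.71 and that for Gins2 from -0.28 to 0.27, and both include differences of either sign.

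A list of 85 further replication genes, 82 of them measured, was set beside these genes. In the Jmjd2b knockdown 20 of the 82 fell (24.4%, where 12.9% of all genes and 18.9% of those above the median level fell) and 8 rose (9.76%, where the shares were 11.6% and 17.7%). The median was -0.17, and the difference between the lists was not tested. The genes with the smallest p were mixed in direction. Asf1a, a histone chaperone, had intensities of 3157, 3253 and 3084 in the Jmjd2b knockdown, against 1674, 1806 and 1623 in the control (0.89 ± 0.09, SE; limma, adjusted p = 2.35e-04). E2f6, a repressive E2F factor, had 656, 728 and 807 in the Jmjd2b knockdown, against 325, 307 and 280 in the control (1.22 ± 0.15; limma, adjusted p = 5.35e-04). Both were higher on every knockdown array, in contrast to E2f1 and E2f2. The checkpoint kinase Chek1 fell by 0.61 ± 0.08 (limma, adjusted p = 6.49e-04), and Pold2, the accessory subunit of polymerase delta, by 0.73 ± 0.13 (0.00282). The ubiquitin ligase scaffold Cul4b rose by 0.65 ± 0.09 (limma, adjusted p = 7.73e-04) and the origin recognition subunit Orc5 by 0.60 ± 0.09 (0.00155). Without control array 3 the counts were 8 fallen and 5 risen, without Jmjd2b knockdown array 3 they were 17 and 5, and the fallen numbered 9 without Jmjd2b knockdown array 2, 11 without Jmjd2b knockdown array 1 and 12 without control array 1. With the mean of all probe sets Cul4b had 0.18 and did not pass.

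In the Jmjd2c knockdown 5 of these 82 genes rose (Asf1a, Orc5, Cdca7, Dck and E2f6) and 4 fell (Rbl1, Mcmbp, Pold2 and Rnaseh2a), with a median of -0.07. These are 6.1% and 4.88%, near the 4.31% and 5.28% of all genes and below the 7.06% and 8.2% of those above the median level. Asf1a had 2564 and 3238 in the Jmjd2c knockdown, against 1674, 1806 and 1623 in the control (0.76 ± 0.11, SE; limma, adjusted p = 0.00449). Orc5 rose by 0.59 ± 0.10 (limma, adjusted p = 0.00953) and Cdca7, a chromatin protein, by 0.65 ± 0.12 (0.0109). Dck, a deoxycytidine kinase, rose by 0.46 ± 0.10 (limma, adjusted p = 0.0204) and E2f6 by 0.75 ± 0.17 (0.0255), while Rbl1, a pocket protein that binds E2F factors, fell by 0.87 ± 0.18 (0.0175). Without control array 3, 1 gene rose and 0 fell, and without control array 1, 0 fell; without Jmjd2c knockdown array 1, 8 rose and 9 fell, and without array 2, 3 rose and 7 fell. Of the 6 genes given here with values only Asf1a passed without control array 3, the others having adjusted p of 0.0535 to 0.107 (limma), and E2f6 had 0.49 without Jmjd2c knockdown array 2. With the mean of all probe sets Rbl1 (-0.44), Cdca7 (0.40) and E2f6 (0.42) did not pass (limma, adjusted p 0.0734 to 0.102), nor did Rbl1, Dck and E2f6 with array type as a block (0.0558 to 0.0714). Between the knockdowns 0 of the 82 passed, with the smallest p for Rbl2 (1.14 ± 0.22 higher in the Jmjd2c knockdown; limma, adjusted p = 0.0542), and 5 were higher without Jmjd2c knockdown array 1.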

How the data were processed

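RNA of 8 samples was profiled on 1 Affymetrix-type array each, labelled as biotinylated cRNA per the labels' protocols. The authors deposited 1 intensity per probe set on a linear scale (0.19 to 18574.29), and their probe summarisation, background correction and scaling are not given in the sources used here. Array medians lay between 44.7 and 46.6, so some scaling had been applied. The platform annotation gave gene names: 34945 of 45101 had 1 symbol, 932 several and 9160 none, and 64 were array controls. Identifiers of 34741 matched RefSeq (GRCm38.p6). Values were converted to log2(intensity + 16), which understates changes of dim genes. The probe set brightest on average stood for its gene, with no filter on dim genes. Groups and replicate numbers came from the sample titles.

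A model with a mean per group was fitted to the 8 arrays in limma 3.58.1 (R 4.3.3; lmFit, eBayes with trend), two-sided, with Benjamini-Hochberg adjustment over 18193 genes and a threshold of 0.05. The spread is shared, which the Jmjd2c knockdown with 2 arrays needs. All 95% intervals are unadjusted, and the number of arrays limits every precision. Tables and figures used Python 3.11.15, pandas 2.3.3, numpy 2.4.6 and matplotlib 3.10.9.

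Deviations from group means of same-numbered Jmjd2b knockdown and control arrays correlated at 0.176, 0.111 and 0.116 across genes. For the Jmjd2c knockdown, with 2 same-numbered pairs, the values were 0.041 and 0.063. The labels state no pairing, and the main fit used none. The sets of identical values did not follow the numbers throughout, since Jmjd2b knockdown array 1 shared 0.459% with control array 3 and 0.0443% with control array 1. Whether the numbers pair the arrays is therefore not settled, and the number entered as a block only as an alternative. Values with the number as a block are given where a call changed.

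The genes, lists, tests and alternatives were chosen with earlier results of these data known. By rule, all called genes of the list are named, with every array's value for up to 12 with the smallest p in the Jmjd2b knockdown and up to 6 in other comparisons. Further array values, and those of genes not past the test, were added afterwards. Other replication genes are named up to 6 per comparison, and any beyond that were named after their values were seen. The promoters are those of up to 5 genes with the smallest p that the table holds.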

Additional observations from a re-analysis of the deposited data

How the results depend on the processing

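Of the results given for the 41 genes, 561 values of called genes were recomputed under other settings (other pseudocounts, scalings, filters, probe set choices, blocks, array types, moderation and left-out arrays): 442 stayed past the threshold with the same sign, 119 had the same sign and no longer passed, and 0 changed sign. Because these genes were called on the same arrays, agreement in sign was likely in advance. The alternatives for the other replication genes were chosen after seeing the data. The number called over all genes changed with the arrays as well. Without control array 3 it went from 4446 to 2635 in the Jmjd2b knockdown and from 1745 to 469 in the Jmjd2c knockdown. In the Jmjd2b knockdown, leaving out 1 array gave 9 to 21 fallen and 1 to 3 risen genes of the list, and 8 to 27 fallen and 5 to 10 risen other replication genes. In the Jmjd2c knockdown it gave 2 to 10 and 0 to 3 for the list, and 0 to 9 and 1 to 8 for the others. Between the knockdowns it gave 0 to 2 lower and 0 to 5 higher others, and 0 of the list. Only arrays whose low values stopped at 1 gave a median of -0.33 for the list in the Jmjd2b knockdown. Only arrays whose low values did not stop at 1 gave a median of -0.22 for the list in the Jmjd2c knockdown. Fewer arrays enter these fits, and each has a group with a lone array, so calls are not counted for them. With array type as a block, 0 of the list rose in the Jmjd2c knockdown (median -0.24) and 3 others rose. Without the eBayes trend 2 of the list and 2 others fell there and 0 of the list rose. With only the 2 groups in the fit, 3 of the list fell and 0 rose there, and 0 others fell and 3 rose. With the mean of all probe sets, 3 of the list fell and 3 others rose in the Jmjd2c knockdown, and 13 others fell in the Jmjd2b knockdown. Between the knockdowns 1 other gene was higher with quantile normalization, with arrays centred on their median and with the replicate block. With the replicate block, the counts in the Jmjd2b knockdown were again 18 fallen and 3 risen, with Rfc1 lost (adjusted p = 0.0604, limma) and Tk1 gained (adjusted p = 0.0402, limma), and in the Jmjd2c knockdown 4 fell and 1 rose, with Gins2 lost; no other call of the list changed. The cause of these differences was not tested. Dim probe sets limit what can be said of Tyms.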
